A study of Mus musculus with 11 samples.

Results

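The Hox genes are a family of homeobox transcription factor genes, and 39 of the 21938 protein-coding genes on the chromosomes examined belonged to it. Members were all protein-coding genes named Hox with a letter from a to d and a number in the GENCODE vM21 annotation. They lie in 4 clusters, HoxA on chromosome 6 (11 genes), HoxB on chromosome 11 (10 genes), HoxC on chromosome 15 (9 genes) and HoxD on chromosome 2 (9 genes). The accessible regions examined were the 94 of 94963 in the deposited list that lay from 50 kb before the first to 50 kb after the last gene of a cluster. HoxA held 29 of them, HoxB 23, HoxC 27 and HoxD 15.

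Within each cluster the genes are transcribed in the same direction and are numbered by paralog group, so that genes of equal number descend from a common ancestor. Low-numbered genes are expressed early and far anterior in the embryo, and high-numbered genes late and posterior or distal in the limb. Mesenchymal and skeletal cells of the adult keep a Hox expression pattern that reflects the body region they came from, a memory maintained by Polycomb and Trithorax chromatin regulators.

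Accessibility was profiled by ATAC-seq, an assay that lets the Tn5 transposase cut open DNA, in the mouse MPC2 line, 1 clone of mesenchymal progenitors immortalised so that it divides at a permissive temperature and matures to osteocytes in osteogenic medium. All 11 cultures were of this line. They comprised undifferentiated MSCs with DMSO vehicle (n = 3) or FG-4592 (n = 3), and osteocytes matured for 3 weeks with vehicle (n = 2) or FG-4592 (n = 3), with FG-4592 (Roxadustat), which blocks the HIF prolyl hydroxylases, at 50 uM for 48 hours. The design asked how this mimicry of low oxygen changes MSCs and osteocytes, but the list held 1 level per region over all cultures together. From this list no group could be set against another, the depth of each culture was unknown, and no value below has a replicate error. A level is given in log2 CPM, the cuts in a region scaled to library size, on a log2 scale and averaged over cultures, as inferred from the values. A low level can mean a site open in few cells or in 1 group of cultures, or a site slightly open in all, and these cannot be told apart. Differences between clusters, genes and lists are therefore descriptions and were not tested.

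Sequence just before the start of paralogous genes is shown first for the pairs of HoxC and HoxD genes of groups 10 and 12, because their levels differed 9.55-fold (group 10) and 1.13-fold (group 12), as described below. The 120 bases before the annotated transcript start are given 5′ to 3′ along the gene (mm10, the GRCm38 assembly), with every CpG in capitals.
Hoxc10 (chr15:102966676-102966795, plus strand): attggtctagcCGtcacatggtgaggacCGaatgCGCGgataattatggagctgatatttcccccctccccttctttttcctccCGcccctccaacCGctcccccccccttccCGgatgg
Hoxd10 (chr2:74691804-74691923, plus strand): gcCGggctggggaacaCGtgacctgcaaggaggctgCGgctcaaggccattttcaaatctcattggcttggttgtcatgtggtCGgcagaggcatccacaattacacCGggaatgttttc
Hoxc12 (chr15:102936637-102936756, plus strand): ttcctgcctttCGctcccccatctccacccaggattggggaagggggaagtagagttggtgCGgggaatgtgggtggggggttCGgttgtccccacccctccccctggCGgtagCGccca
Hoxd12 (chr2:74674893-74675012, plus strand): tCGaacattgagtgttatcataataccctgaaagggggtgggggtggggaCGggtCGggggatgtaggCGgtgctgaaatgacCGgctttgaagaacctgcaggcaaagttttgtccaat
The Hoxc10 sequence lay inside a region of 5.30 log2 CPM. None of the other 3 sequences was overlapped by a region, although each gene had one within 1000 bp of its start. The number of CpGs was 7 for Hoxc10 and 5 each for Hoxd10, Hoxc12 and Hoxd12.
The same stretch is shown for Hoxc13 and Hoxb13, the genes with the highest and the lowest level when only the highest region at a start is taken.
Hoxc13 (chr15:102920983-102921102, plus strand): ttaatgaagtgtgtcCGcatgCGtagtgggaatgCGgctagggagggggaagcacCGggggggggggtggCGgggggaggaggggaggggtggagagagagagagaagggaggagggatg
Hoxb13 (chr11:96194196-96194315, plus strand): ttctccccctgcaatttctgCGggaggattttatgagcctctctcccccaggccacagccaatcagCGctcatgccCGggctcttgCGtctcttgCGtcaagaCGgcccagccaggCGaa
Both stretches were overlapped by a region, at 6.09 log2 CPM for Hoxc13 and 0.55 for Hoxb13. The Hoxb13 stretch also reached into a neighbouring region of 0.52, and the ranking with such regions joined was not examined. Hoxb13 had 7 CpGs in this stretch and Hoxc13 had 5.

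Along the clusters, HoxA and HoxC were covered by more, higher and wider regions than HoxB and HoxD. All 4 clusters were denser in regions than the genome, with 23.7 per 100 kb in HoxA, 20.7 in HoxC, 11.4 in HoxD and 9.20 in HoxB, against 3.48 over the genome, 4.27 on the chromosome of HoxD and 5.85 on that of HoxB. Between the first and the last gene, HoxA held 25 regions over 105291 bp with a median level of 3.36 log2 CPM and HoxC 24 regions over 115750 bp with a median of 3.60. HoxB held 16 regions over 173941 bp with a median of 1.25, and HoxD 11 regions over 96833 bp with a median of 1.87. Regions covered 17.4% of the HoxA cluster and 16.8% of HoxC, against 4.77% of HoxD and 2.06% of the genome. In HoxB regions covered 3.2%, or 5633 bp, below the 3.50% of its chromosome, while chromosome 2 of HoxD had 2.48%. The level summed as CPM over each 100 kb was 408 in HoxA and 380 in HoxC, 27.6 in HoxB and 41.6 in HoxD, and 37.2 over the genome. On the chromosome of HoxB it was 69.6 and on that of HoxD 44.1, so both clusters lay below their own chromosome. It was 37.6 on the chromosome of HoxA and 42.6 on that of HoxC. The pairing of HoxA with HoxC and of HoxB with HoxD was made after these values were seen. The chromosomes did not differ in the same way, as the median level of all regions was 2.13 on chromosome 6, 2.24 on chromosome 11, 2.21 on chromosome 15 and 2.12 on chromosome 2, beside 2.12 in the whole list.

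Inside HoxB and HoxD no region exceeded 3.12 log2 CPM, while 30 of the 49 regions inside HoxA and HoxC did. The widest of the 27 regions inside HoxB and HoxD measured 804 bp, and 20 of the 49 inside HoxA and HoxC were wider. A wider region collects more cuts, so the level was also expressed per kb of width. On that scale the median was 4.35 log2 CPM per kb inside HoxA and HoxC and 2.93 inside HoxB and HoxD, beside 3.25 in the whole list, and 33 of the 49 regions lay above the highest HoxB or HoxD value of 3.99. Level per kb itself was higher where regions were wider, with 3.25 in the whole list (median width 460 bp) and 4.75 at coding starts (median width 1134 bp), so the division does not remove width, and no comparison at equal width was made. Per kb, the highest regions were those of Hoxa9 (5.39), Hoxa7 (5.30), Hoxc6 (5.27) and the distal Hoxa3 start (5.18), followed by a 336 bp region in an intron of Hoxc6 (5.11) and the Hoxc13 region (5.10). The lowest inside a cluster lay in an intron of Hoxb3 (2.28). The highest inside HoxB, 3.67, was an intergenic region between Hoxb5 and Hoxb4. Of the 94 regions, 12 were among the highest 10% of the list, above 4.80 log2 CPM. HoxA held 7 of these and HoxC 5, all of them between the first and last gene.

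**Figure D1:**
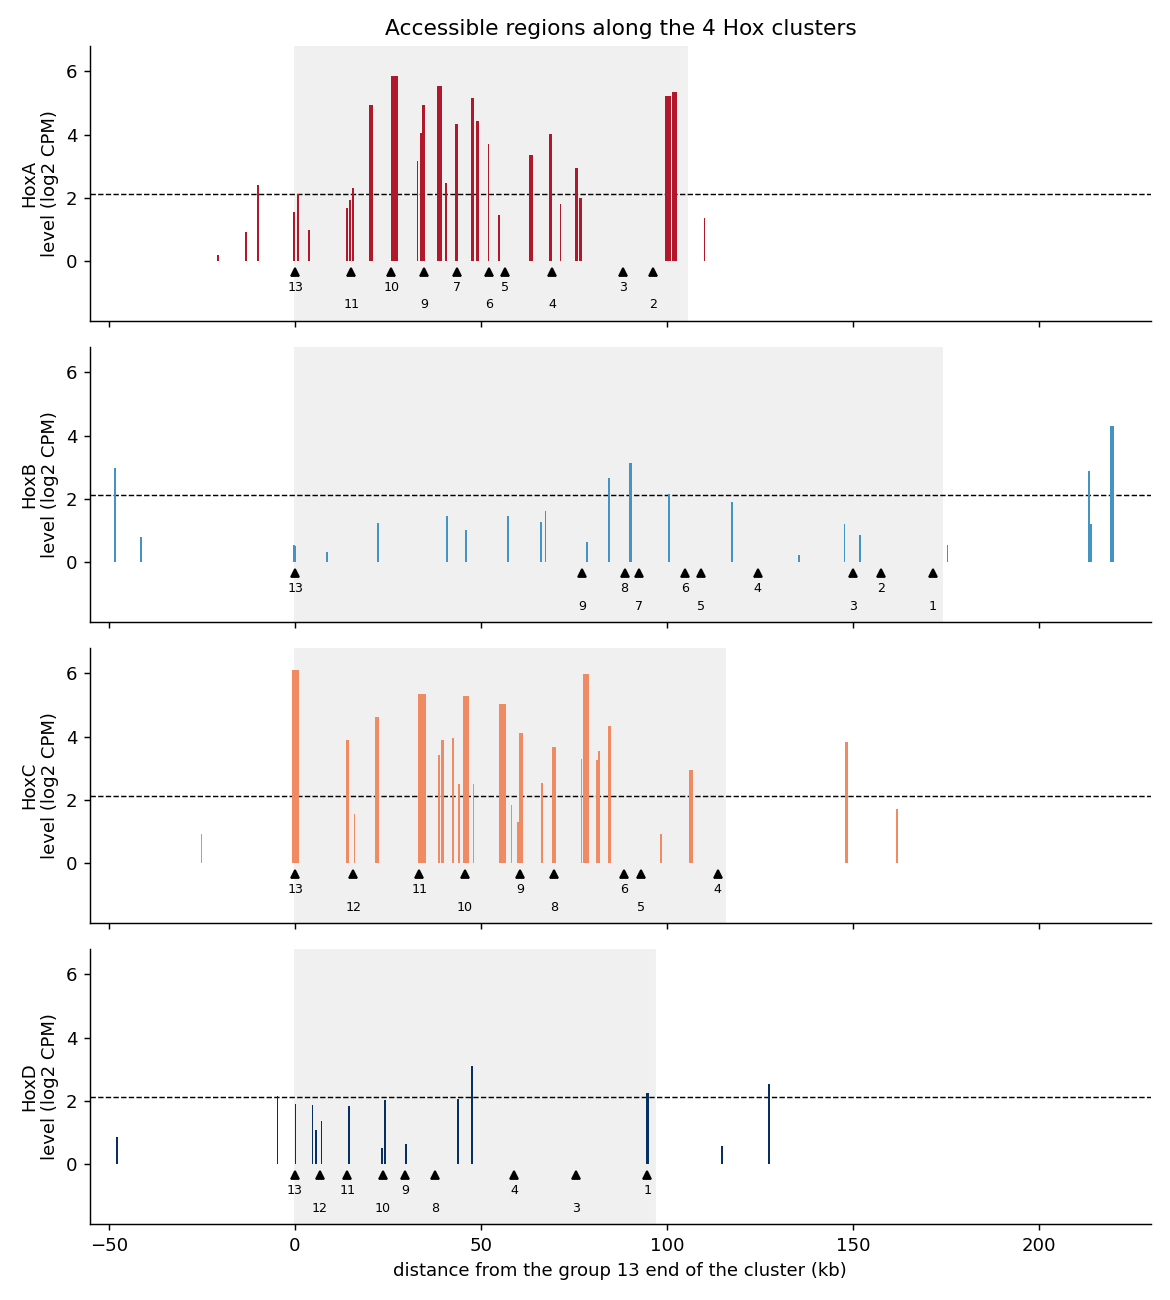
Level of the 94 accessible regions (log2 CPM, vertical axis) by distance from the group 13 end of each cluster (kb, horizontal axis), 1 panel a cluster. Bars are as wide as the regions, with a minimum of 0.5 kb, and start at 0, grey shading spans the first to the last gene, triangles with numbers mark the start codons by paralog group (1 HoxA gene is not marked), and the dashed line is the median of the whole list (2.12). HoxA and HoxC carry tall, wide bars up to 5.84 and 6.09 with gaps near groups 2 and 3 (HoxA) and 4 to 6 (HoxC), while no bar inside HoxB or HoxD exceeds 3.12.

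The flanks held fewer regions than the clusters. The 400000 bp of flanking sequence held 18 regions with a median level of 1.29 log2 CPM, and regions covered 1.86% of it against 9.77% inside the clusters. The flank of HoxB beside Hoxb1 stood apart in covered share and summed level. Its 4 regions covered 3.99% of it and its summed level was 61.8 CPM per 100 kb, above the 27.6 inside HoxB, and the highest region of the window lay there. That region, chr11:96413488-96414377, reached 4.31 log2 CPM, was intergenic and, at 890 bp, was also the widest of the window. In the other windows the flank regions had levels of 0.19 to 2.39 log2 CPM beside HoxA (4 regions), 0.91 to 3.82 beside HoxC (3 regions) and 0.57 to 2.53 beside HoxD (4 regions). The HoxB flank beside group 13 held a region of 2.97 log2 CPM in an intron of Ttll6, a tubulin-modifying enzyme gene.

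In HoxA the highest region covered the start of Hoxa10 (chr6:52233095-52235123), a group 10 gene that patterns the lumbar spine and the upper limb segment. Its level was 5.84 log2 CPM and its width of 2029 bp was the largest in the cluster. The next, at 5.55 log2 CPM, lay at an upstream start of Hoxa7 (chr6:52221393-52222576), a gene of the trunk. A further region of the Hoxa10 locus, chr6:52239783-52241041, had a level of 4.92. Hoxa9, which acts in trunk and limb and in blood progenitors, had a row of 3 regions at its starts of 4.95, 4.06 and 3.17 log2 CPM. Levels were lower at the starts of Hoxa6 (3.69) and Hoxa4 (4.01), percentiles 23.4 and 27.1 of coding starts, and the region next to Hoxa5 between them had 1.45.

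At the anterior end of HoxA, a region of 5.21 log2 CPM lay within Hotairm1, a noncoding RNA gene (chr6:52159871-52161373). Beyond it came 22436 bp without a region, the longest such stretch in the cluster, which held the start codons of Hoxa2 and Hoxa3. Hoxa2 patterns the hindbrain and the branchial arches and had no region within 1000 bp of any start. The region of 5.15 log2 CPM credited to Hoxa3 lay at the start of a read-through transcript near Hoxa6 and Hoxa7, and the nearest region to the Hoxa3 start codon was 11161 bp away. Lower regions, of 2.94 and 2.00 log2 CPM, lay at an annotated Hoxa3 start nearer to the start codon, but only the highest region was used. Hoxa5, known for its role in lung and cervical skeleton, also lacked a region, the nearest being 1507 bp from its start codon.

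The posterior end of HoxA was low. Hoxa11, which shapes the middle limb segment, had 2.32 log2 CPM at its start, and Hoxa13, which shapes hand and foot, had 2.12, which were percentiles 11.7 and 10.3 of coding starts. The region of Hoxa11 was shared with Hoxa11os, its antisense transcript. Levels in HoxA thus dropped from 5.84 at Hoxa10 to 2.32 at the neighbouring Hoxa11, and no region of the cluster from the Hoxa11 start to Hoxa13 exceeded that value.

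In HoxC the posterior end was the high one. The Hoxc13 region (chr15:102920329-102922321, 1993 bp), at a gene of hair and nail formation, had a level of 6.09 log2 CPM, the highest of all 94. Hoxc11 had the widest of them, chr15:102954278-102956416 with 2139 bp and 5.33 log2 CPM. Hoxc10 followed with 5.30 and Hoxc9 with 5.03, and Hoxc8 was lower at 3.66. Hoxc12, between Hoxc13 and Hoxc11, stood out from its neighbours with 1.55 log2 CPM. The second highest region, 5.96 log2 CPM (chr15:102998668-103000288), lay at a distal start of Hoxc6, a gene of the thoracic trunk, whose start codon was 3413 bp from the nearest region. The region credited to Hoxc5 was that of Hoxc10, where a read-through transcript begins, and the start codon of Hoxc5 lay 5305 bp from the nearest region. Hoxc4 had 0.93 log2 CPM at a distal start. A stretch of 13193 bp without a region held the start codons of Hoxc5 and Hoxc6.

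Between its genes HoxC also held 6 intergenic regions, of 2.49 to 4.61 log2 CPM with a median of 3.89. HoxB held 6 such regions, of 0.33 to 2.65 with a median of 1.35, HoxD 1 of 1.87 and HoxA 0. Intergenic regions lay outside every annotated gene model, and read-through models of Hoxa3 and Hoxc5 span other genes of their clusters. In HoxA the region of 3.36 log2 CPM between Hoxa4 and Hoxa5 (chr6:52196974-52197865) therefore counted as intronic. These counts thus do not compare the open sequence between genes across clusters. The intergenic regions of HoxC included those of 4.61 log2 CPM near the noncoding gene Hotair (chr15:102942780-102943661) and of 3.90 between Hoxc13 and Hoxc12 (chr15:102934869-102935703). Hotair itself, a noncoding RNA studied for its tie to Polycomb, had no region within 1000 bp of a start, the nearest being 4069 bp away.

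In HoxB, 8 of the 10 genes lacked a region at any start: Hoxb1, Hoxb2, Hoxb4, Hoxb5, Hoxb6, Hoxb7, Hoxb8 and Hoxb9. The remaining genes were Hoxb3 with 1.19 log2 CPM and Hoxb13 with 0.55. The highest region inside the cluster, 3.12 log2 CPM (chr11:96284121-96284924), overlapped an exon of Hoxb8 and lay 1158 bp from its start codon. The next highest, 2.65, was intergenic between Hoxb9 and Hoxb8 (chr11:96278455-96279120). The distance from the start codon to a region was between 1158 bp for Hoxb8 and 7975 bp for Hoxb5 among the 8 genes without one.

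In HoxD nearly every gene had a region at a start, but a low one. Levels were 2.24 log2 CPM at Hoxd1, 2.04 at Hoxd10, 1.92 at Hoxd13, 1.84 at Hoxd11, 1.37 at Hoxd12 and 0.65 at Hoxd9. Hoxd9 to Hoxd13 are the genes that pattern the limb from its base to the digits. Hoxd3 and Hoxd4 shared a region of 2.05 at distal starts far from their start codons (18814 and 10961 bp), and Hoxd8 had none. The highest region of the window, 3.11 log2 CPM (chr2:74715776-74716318), lay at the start of Hoxd3os1, an antisense transcript. The second highest, 2.53 (chr2:74795499-74795973), was intergenic in the flank beside Hoxd1, and the widest, 582 bp, was that of Hoxd10 (chr2:74692282-74692863). A stretch of 46507 bp without a region, the longest of the 4 clusters, held the start codons of Hoxd3 and Hoxd4 and ended at Hoxd1.

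Of all 39 genes, 28 had a region no more than 1000 bp from any annotated start (71.8%, 95% Wilson interval 56.2 to 83.5, which covers counting error only and treats genes as independent), against 64.1% of all protein-coding genes. With only regions at least 500 bp wide this order turned round, to 41.0% of Hox genes against 56.9% of coding genes. By cluster the number was 9 of 11 in HoxA, 2 of 10 in HoxB, 9 of 9 in HoxC and 8 of 9 in HoxD. By paralog group it was 5 of 8 genes in groups 1 to 3, 8 of 15 in groups 4 to 8 and 15 of 16 in groups 9 to 13, the exception being Hoxb9. With only regions at least 500 bp wide, 50% of the genes of groups 9 to 13 had one. Because several Hox genes have read-through transcripts that begin at a neighbour, the start codon was also used, and 21 of 39 genes then had a region within 1000 bp, against 46.4% of coding genes. The 21 lay at most 222 bp from a region and the remaining 18 at least 1158 bp. All 15 of the posterior genes with a region at a transcript start also had one at the start codon, but 2 of 8 did in groups 1 to 3 and 4 of 15 in groups 4 to 8.

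Most Hox starts lay below the typical coding start. The median over the 28 Hox starts was 2.99 log2 CPM, against 5.03 over all coding starts with a region, and 9 of 28 (32.1%, interval 17.9 to 50.7) lay above that value. All 9 belonged to HoxA (4 of 9) or HoxC (5 of 9). The median was 4.95 in HoxA, 5.30 in HoxC, where the Hoxc10 region counted for Hoxc5 as well, 0.87 in HoxB and 1.98 in HoxD. At start codons the median was 4.17 in HoxA and 4.71 in HoxC, against 4.94 over coding genes. Per kb of width it was 4.82 in HoxA and 4.24 in HoxC, against 4.75. The highest HoxD start, Hoxd1, was at percentile 11.1 of coding starts and the highest HoxB start, Hoxb3, at percentile 4.32.

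**Figure D2:**
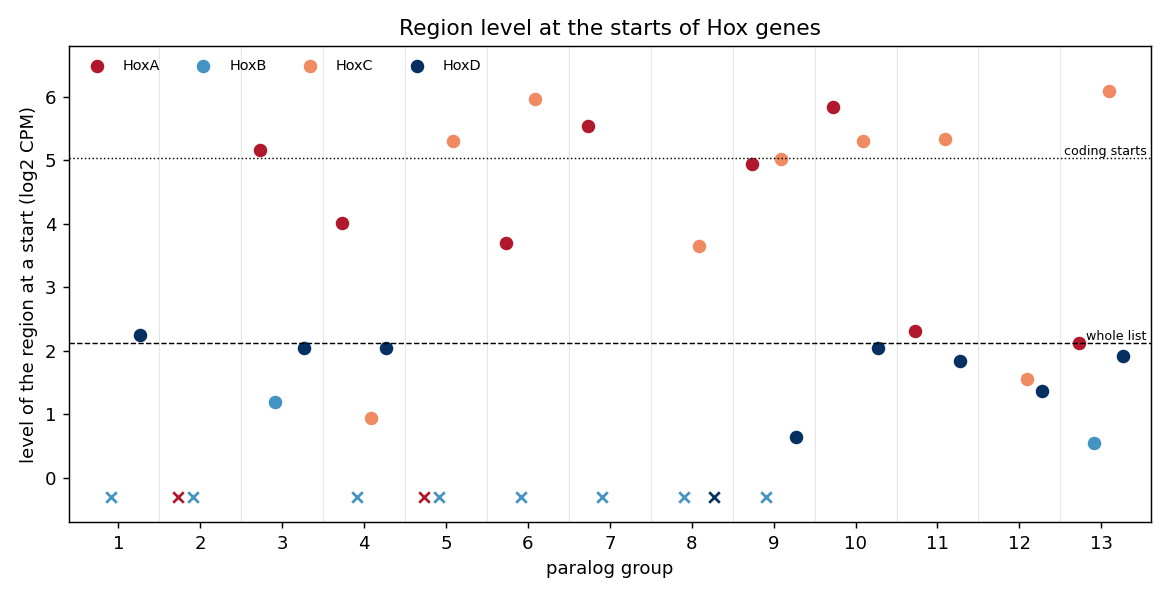
Level of the highest region within 1000 bp of a transcript start (log2 CPM, vertical axis) for Hox genes by paralog group (horizontal axis) and cluster (colour), with 1 HoxA gene not shown. Crosses mark genes without such a region, the dotted line is the median of all coding starts (5.03) and the dashed line that of the whole list (2.12). Hoxc5 shares its region with Hoxc10, and Hoxd3 with Hoxd4. In groups 9 to 11 the HoxA and HoxC points lie above the HoxD points.

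Paralogs differed widely. Of 16 pairs of paralogs with a region at both starts, of which 1 gene lay in HoxA or HoxC and the other in HoxB or HoxD, the former was higher in 15, with a median difference of 3.18 log2 CPM and a range from -1.11 to 5.54. The exception was Hoxc4, lower than Hoxd4. At start codons it was higher in 12 of 12 pairs. Pairs within a paralog group share genes, so they are not independent. The clusters were also grouped after their levels were seen, so these counts partly restate that choice. Pairs of a HoxA and a HoxC gene were not counted. In group 13, Hoxc13 was 46.7-fold higher than Hoxb13 and 18.1-fold higher than Hoxd13, and Hoxa13 was 1.15-fold higher than Hoxd13. In group 11, Hoxc11 was 11.3-fold higher than Hoxd11 and Hoxa11 1.40-fold higher. In group 10, Hoxa10 was 14.0-fold and Hoxc10 9.55-fold higher than Hoxd10. In group 9, Hoxa9 was 19.7-fold and Hoxc9 20.8-fold higher than Hoxd9, but at the start codon Hoxc9 was 11.1-fold higher and Hoxa9 again 19.7-fold, and per kb the differences were 1.21 for Hoxc9 and 2.48 for Hoxa9 on the log2 scale. Group 12 showed the smallest contrast, with Hoxc12 1.13-fold higher than Hoxd12. Per kb of width the former was again higher in 15 of 16 pairs, with a median difference of 1.70 and a range from -0.36 to 2.54. Each fold used only the highest region at a start, and folds with neighbouring regions joined were not computed. Further regions lay at several starts, among them those of Hoxb13 (0.52 log2 CPM), Hoxa13 (1.56), Hoxa11 (1.94 and 1.67) and Hoxd10 (0.52).

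Starts rich in CpG, with a GC content of at least 55% and an observed over expected CpG ratio of at least 0.6 within 500 bp, are usually accessible, and 91.6% of such coding genes had a region. Among Hox genes, 25 had a CpG-rich start and 20 of them (80%) a region. By cluster this was 8 of 8 in HoxA, 5 of 5 in HoxC and 7 of 8 in HoxD, where Hoxd8 was the exception. In HoxB it was 0 of 4, namely Hoxb5, Hoxb6, Hoxb7 and Hoxb9. By paralog group it was 3 of 3 in groups 1 to 3, 5 of 9 in groups 4 to 8 and 12 of 13 in groups 9 to 13. The last share, 92.3%, was near the 91.6% of such coding genes. The clusters were alike in base composition, with a GC content between 48.9% and 50.0%, but HoxB and HoxC had fewer CpGs (20.9 and 21.5 per kb) than HoxA and HoxD (29.9 and 28.0). The most CpG-rich regions were those of HoxD, where levels were low. Inside HoxD the median GC content was 68.5% and the median observed over expected CpG 0.77, against 57.9% and 0.60 in HoxA, 57.5% and 0.61 in HoxB and 54.6% and 0.53 in HoxC. Repeat-masked sequence, known to be scarce in Hox clusters, made up 13.4% of HoxA, 24.6% of HoxB, 15.9% of HoxC and 14.4% of HoxD, against 36.4% of the genome.

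Apart from microRNAs, 14 of 27 noncoding genes in the HoxA window had a region at a start, 2 of 9 in HoxB, 0 of 6 in HoxC and 4 of 9 in HoxD, against 16.9% of all such genes on the chromosomes examined. The 14 HoxA genes shared 9 regions, since several are short models of the same locus. They were, besides short or unnamed models, in HoxA Hotairm1, Hoxa11os, Gm29430 and Evx1os, whose region of 0.57 log2 CPM lay beyond the end of the window and was not among the 94, in HoxB Gm53 (1.61 log2 CPM) and Gm11536 (1.19), and in HoxD Hoxd3os1, Haglr, Gm28309 and Gm28793. Haglr is transcribed away from Hoxd1 and shared its region. Hottip, a noncoding RNA at the posterior end of HoxA, had no region, the nearest being 1656 bp away. The clusters also hold microRNA genes that target Hox transcripts, with a shared seed (bases 2 to 8, in capitals) in each family. Their mature sequences in RefSeq (GRCm38.p6) are shown because the hairpin genes sit between Hox genes in all 4 clusters.
mmu-miR-10a-5p: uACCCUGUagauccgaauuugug
mmu-miR-10b-5p: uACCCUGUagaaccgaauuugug
mmu-miR-196a-5p: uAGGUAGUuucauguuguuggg
mmu-miR-196b-5p: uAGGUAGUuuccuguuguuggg
Neither Mir10a in HoxB nor Mir10b in HoxD had a region within 1000 bp of the hairpin start, and the same held for Mir196b in HoxA, Mir196a-1 in HoxB, and Mir196a-2 and Mir615 in HoxC. The distance to the nearest region over these 6 genes was 2058 to 9752 bp. Primary transcripts can start far from the hairpin, and those starts were not examined.

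Of the 94 regions, 46 (48.9%) were promoter regions, within 1000 bp of the start of any annotated gene, against 22.7% of the whole list. A further 28 were intergenic, 15 intronic and 5 exonic. The windows were close to the list in level, with 49 of 94 regions (52.1%, interval 42.1 to 61.9) above its median. These were 18 of 29 in HoxA and 21 of 27 in HoxC, and 6 of 23 in HoxB and 4 of 15 in HoxD. Regions of at least 1000 bp numbered 11 and were found in HoxA (5) and HoxC (6). In the list as a whole 15.5% of regions were that wide.

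**Figure D3:**
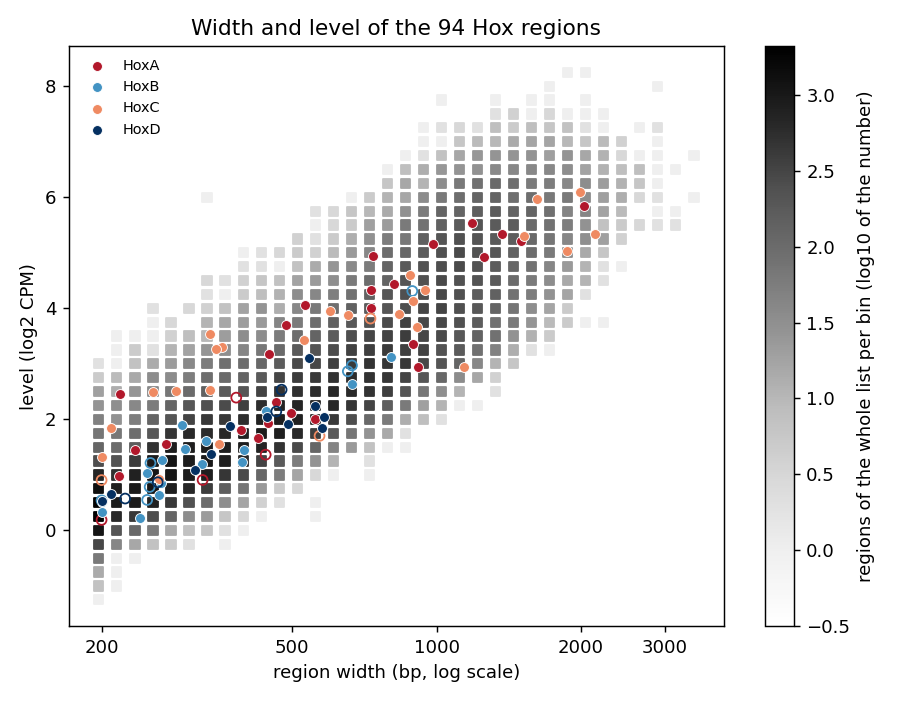
Width (bp, log scale, horizontal axis) and level (log2 CPM, vertical axis) of the 94 Hox regions by cluster, filled inside the cluster and open in the flanks, over the whole list in grey bins (darker with more regions). HoxA and HoxC points run along the cloud up to 2139 bp and 6.09 log2 CPM, and HoxB and HoxD points inside the clusters stay at or below 804 bp and 3.12.

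Sequence motifs were counted in the regions on both strands. An AP-1 site (TGACTCA or TGAGTCA), bound by Fos and Jun proteins, occurred in 7 of 94 regions (7.45%, interval 3.65 to 14.6), against 22.1% of all regions. In the central 200 bases, which makes lengths equal, it was in 2 (2.13%) against 12.1%. The regions with an AP-1 site numbered 3 in HoxA, 1 in HoxB, 1 in HoxC and 2 in HoxD, and those in HoxA included the Hotairm1 region of 5.21 log2 CPM and the Hoxa10 locus region of 4.92. An HRE core (ACGTG or GCGTG), the sequence HIF binds, occurred in 57 regions (60.6%, interval 50.5 to 69.9) against 46.2%, and in the central 200 bases in 35.1% against 24.2%. By cluster it was in 17 of 29 regions in HoxA, 12 of 23 in HoxB, 18 of 27 in HoxC and 10 of 15 in HoxD. The HRE core contains a CpG, and Hox regions were richer in it, with a median observed over expected CpG of 0.53 against 0.21 and a median GC content of 57.1% against 49.8%. The part of base composition in these shares was not tested. A match does not show that a factor binds.

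A Hox-Pbx site (TGAT, any 2 bases and AT), the joint site of Hox proteins and their Pbx partners, occurred in 16 regions (17.0%, interval 10.8 to 25.9), against 16.5% of the list, and in the central 200 bases in 4.26% against 6.48%. Among regions at least 500 bp wide the order was the other way, with 35.9% against 23.3%. By cluster it was in 7 of 29 regions in HoxA, 1 of 23 in HoxB, 7 of 27 in HoxC and 1 of 15 in HoxD. Regions of HoxA and HoxC were wider, and in the central 200 bases the numbers were 1, 1, 2 and 0 in that order.

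A CTCF core (CC, any 3 bases, AG, any 2 bases and GGC), part of the site of the factor that bounds chromatin loops, was found in 20 regions (21.3%, interval 14.2 to 30.6), against 19.3% of the list, and in the central 200 bases in 6.38% against 9.88%. CTCF sites are known to divide Hox clusters into active and silent parts, so the match in the highest region between the first and last gene of each cluster whose surroundings overlap no exon is printed, with the core in capitals and 12 bases to each side.
HoxA (12-base core at chr6:52220242-52220253, plus strand): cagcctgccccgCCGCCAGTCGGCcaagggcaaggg
HoxB (12-base core at chr11:96278948-96278959, plus strand): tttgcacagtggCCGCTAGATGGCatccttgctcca
HoxC (12-base core at chr15:102977696-102977707, minus strand): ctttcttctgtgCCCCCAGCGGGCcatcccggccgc
HoxD (12-base core at chr2:74716192-74716203, plus strand): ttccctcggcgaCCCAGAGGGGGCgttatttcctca
The HoxA match lay within Hoxa7 in a region of 2.46 log2 CPM, the HoxB match in the intergenic region of 2.65 between Hoxb9 and Hoxb8, the HoxC match in the Hoxc9 region of 5.03 and the HoxD match in the Hoxd3os1 region of 3.11. Over all 20 regions with a match, levels ran from 0.86 to 6.09 log2 CPM.

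Nearly all genes whose products work with Hox proteins or keep their state had a region at a start. All 9 genes of the TALE cofactors (Pbx, Meis and Pknox), which bind DNA together with Hox proteins, had one, with a median of 5.66 log2 CPM, and 7 lay above the median of coding starts. Pbx4 was lowest with 3.77, and Pknox1 had 6.59 and Meis1 6.46. All 17 Polycomb repressor genes had one (median 5.53). Cbx7 was lowest with 3.67, and Ezh2, the H3K27 methyltransferase, had 6.12. Of 9 Trithorax and H3K27 demethylase genes, 8 had one (88.9%, with a 95% Wilson interval of 56.5 to 98.0 that holds 64.1%, median 5.50), from Rbbp5 with 4.46 to Kmt2b with 6.39. The exception was Kdm6b, an H3K27 demethylase gene. These medians stand beside 5.03 over all coding starts, and the shares beside 64.1%. CpG-rich starts were held by 17 of 17 Polycomb, 7 of 9 Trithorax and demethylase and 5 of 9 TALE genes, and over all coding genes with such starts 91.6% had a region, with a median of 5.37.

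The ParaHox, Cdx and Evx genes, the closest relatives of the Hox genes, were mostly without a region. Of 8 genes 2 had a region, 25% with an interval of 7.15 to 59.1, where 64.1% of all coding genes had one. They were Gsx1 with 1.60 log2 CPM and Cdx2, a regulator of posterior Hox genes, with 1.04. Evx1 and Evx2, the neighbours of the HoxA and HoxD clusters, had none. Of 20 limb identity and patterning genes, 16 had a region (80%, median 5.30), from Alx4 with 1.16 to Irx3 with 6.69. Tbx5, Tbx4, Hand2 and Shh had none. Pitx1, which specifies the hindlimb, had 4.42, and Emx2 and Tbx15, genes of the limb girdles, had 6.08 and 5.68. Of 16 head and axial mesenchyme genes, 9 had a region (56.2%, median 3.73). Meox2 was lowest with 0.48, and Dlx5, also an osteogenic factor, had 5.37. Of 12 retinoic acid pathway genes, 10 had one (83.3%, median 3.29), from Cyp26a1, a retinoic acid degrading enzyme, with 0.66 to the receptor gene Rara with 6.52. Aldh1a2, which makes retinoic acid, and Cyp26c1 had none. The lists are small, and the 95% Wilson intervals of the limb, head and retinoic acid shares, 58.4 to 91.9, 33.2 to 76.9 and 55.2 to 95.3, all hold the 64.1% of all coding genes. Over all coding genes with a CpG-rich start, 91.6% had a region. Among list genes with such a start it was 13 of 13 limb, 8 of 14 head and 8 of 9 retinoic acid genes. Of the ParaHox, Cdx and Evx genes it was 2 of 5.

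The label of the cells was checked against markers. Of 14 mesenchymal and osteogenic genes, 12 had a region at a start (85.7%, with a 95% Wilson interval of 60.1 to 96.0 that holds the 64.1% of all coding genes), among them Pdgfra with 6.14 log2 CPM, Runx2 with 5.05 and the osteocyte gene Dmp1 with 4.41, and Alpl was lowest with 2.33. Phex and Pdpn had none. The median of the 12 was 4.99 log2 CPM, beside 5.03 over all coding starts, and 6 of the 12 lay above that value. Of 25 markers of other cell types, 7 had a region and the highest was Spi1 with 3.38. These were 2 of 5 haematopoietic, 2 of 5 endothelial, 2 of 5 epithelial, 0 of 5 skeletal muscle and 1 of 5 neural genes. At the start codon 1 of 5 skeletal muscle genes had a region, of 2.69 log2 CPM. CpG-rich starts, with a region in 91.6% of such coding genes, were held by 5 of the 14 mesenchymal and osteogenic genes. They were held by 0, 1, 3, 1 and 2 of 5 genes in the other lists, in the order above.

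**Figure D4:**
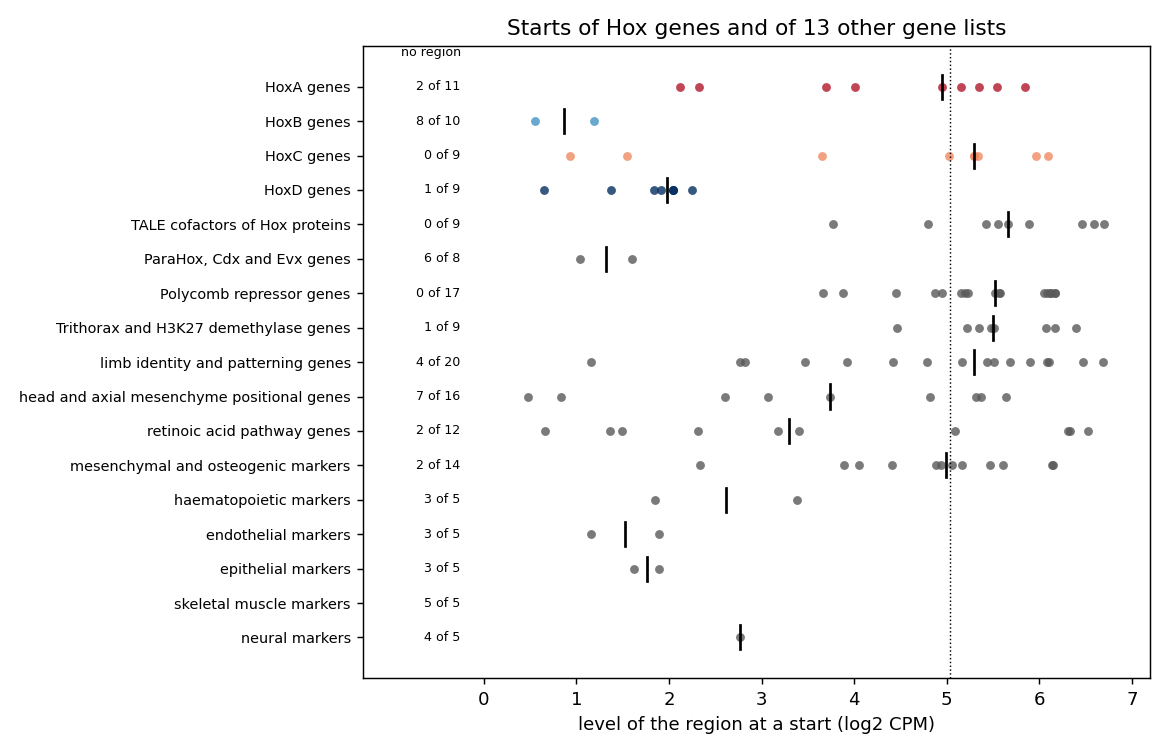
Level of the region at a start (log2 CPM, horizontal axis) for Hox genes by cluster and for 13 other gene lists (rows), 1 point a gene with a region, black bars for medians. Numbers at the left give genes without a region of all genes in the list, and the dotted line is the median of all coding starts (5.03). HoxA and HoxC medians are 4.95 and 5.30, HoxB and HoxD medians 0.87 and 1.98, and that of ParaHox, Cdx and Evx genes 1.32.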

How the data were processed

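The authors trimmed ATAC-seq reads with Trim Galore, aligned them to mm10 with Bowtie2, removed duplicates with Picard 2.17.8, called peaks with MACS2 2.2.7.1, merged the peaks of several samples, removed blacklisted regions, counted cuts with pyDNase, dropped regions with few cuts and normalised with TMM in edgeR 3.24.3. Merging widens regions that several libraries share. A Tn5 shift was not stated. A library that the authors removed for quality was not analysed here. The paper does not name its group, and osteocyte vehicle had the fewest cultures.

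The deposited values, 1 per region without a header, were read as the authors' average log2 CPM, because 460 of them were below 0 and 2 to their power summed to 1012761. The study's own comparisons between groups were not used here. Without values per sample, no test, replicate error or interval for a level was possible.

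Regions were joined to GENCODE vM21 on GRCm38 and motifs read from its sequence in Python 3.11.15 with numpy 2.4.6 and pandas 2.3.3. Where several regions lay at the starts of a gene, the highest was used. Overlaps, motif counts and Wilson intervals were tested on simulated data. The members and lists were chosen with earlier results of these data known. All 39 genes were accounted for, and per cluster the 2 highest regions and the widest were named, with noncoding genes that had a region at a start, and for each list its highest and lowest gene and those without a region. Some genes and 1 sequence that this rule or its examples would give are not reported here. Other regions and genes named were chosen after their values were seen. Alternatives were other windows, flanks and widths, joined regions, level per kb, the same chromosome as reference, the central 200 bases and, added after the annotation was examined, the start codon.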

Additional observations from a re-analysis of the deposited data

How the results depend on the processing

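Of 33 alternative values for the counts and shares given in the report, 21 stayed within 1.5 times the count or inside the interval of the share, and 12 moved. With regions at least 500 bp wide, 39 regions were left in the windows and 34 inside the clusters, 41.0% of Hox genes and 50% of the genes of groups 9 to 13 had a region at a start, the former against 56.9% of coding genes, and 64.1% of the regions lay above the median of all regions that wide. The share with an HRE core was then 89.7% and with a Hox-Pbx site 35.9%, against 66.3% and 23.3% of all regions that wide. With the central 200 bases the shares were 2.13% for AP-1, 6.38% for CTCF, 35.1% for HRE and 4.26% for Hox-Pbx, since less sequence was searched. With the start codon, chosen after seeing the data, 53.8% of Hox genes had a region. Flanks of 20 or 100 kb gave 83 or 122 regions. No paired analysis was possible because values of single samples were not in the list. The unknown depth limits what a missing region means: it was not called in these libraries.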
